A study of Homo sapiens with 4 samples.

Results

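The heat shock chaperones examined here are 10 cytosolic genes listed by name, *HSPB1*, *CRYAB*, *HSPA1A*, *HSPA1B*, *HSPA8*, *HSPH1*, *DNAJB1*, *HSP90AA1*, *HSP90AB1* and the transcription factor gene *HSF1*. They were listed as a gene family, with earlier results of these data known. An added reason was that HSPB1 has been linked to FLI1 in glioblastoma. Of the 10, 9 were measured among 46660 gene identifiers, and *HSPA1A* was not analysed here. RNA-seq was performed on 4 libraries of U87MG and U251MG, which are human glioblastoma lines long kept in culture. Each line gave 1 library of control cells, which carried the empty pGreen lentiviral vector (called shControl in the sample titles), and 1 of cells with lentiviral shRNA against the ETS transcription factor gene *FLI1* (shFLI1). All 4 populations were infected with lentivirus and kept as mixed puromycin-resistant cells in serum-containing medium, not as single clones, and no heat shock or drug that unfolds proteins is named in the labels. The comparison asks how the level of each chaperone RNA differed between shFLI1 and control cells of the same line.

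Heat shock proteins hold damaged or newly made proteins in a state from which they can fold. Small heat shock proteins bind unfolding clients without using ATP, HSP70 proteins bind and release them in an ATP cycle that J-domain proteins start and nucleotide exchange factors end, and HSP90 proteins act late, on kinases, steroid receptors and other clients that are close to folded. HSF1 is the main transcription factor of the heat shock response and binds repeats of the heat shock element in the promoters of many chaperone genes, and glioblastoma cells often hold high levels of chaperones without any heat shock.

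The upstream sequences of 4 members are shown because they hold matches to heat shock elements, which played no part in listing the members. A further reason was that *HSPB1* and *HSPA1B* had the lowest shFLI1 levels relative to control in U87MG. In U251MG *HSPA1B* had the lowest, and *HSPB1* did not stand apart from the other members. Each run is the 250 bases before the start site, 5′ to 3′ on the strand of the gene, from the RefSeq promoter table of GRCh38.p14. Capitals mark every match to the heat shock elements GAANNTTC and TTCNNGAA, each of which reads the same on both strands. *HSPB1* lies on chromosome 7 and its sequence spans chr7:76302423-76302672 on the plus strand, *HSPA1B* lies on chromosome 6 (chr6:31827488-31827737, plus strand), *HSPA8* on chromosome 11 (chr11:123062137-123062386, minus strand) and *HSP90AA1* on chromosome 14 (chr14:102087045-102087294, minus strand).
HSPB1: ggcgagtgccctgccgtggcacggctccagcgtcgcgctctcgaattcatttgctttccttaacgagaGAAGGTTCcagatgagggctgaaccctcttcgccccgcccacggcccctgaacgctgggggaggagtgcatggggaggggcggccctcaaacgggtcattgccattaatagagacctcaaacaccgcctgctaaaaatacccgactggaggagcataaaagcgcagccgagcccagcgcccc
HSPA1B: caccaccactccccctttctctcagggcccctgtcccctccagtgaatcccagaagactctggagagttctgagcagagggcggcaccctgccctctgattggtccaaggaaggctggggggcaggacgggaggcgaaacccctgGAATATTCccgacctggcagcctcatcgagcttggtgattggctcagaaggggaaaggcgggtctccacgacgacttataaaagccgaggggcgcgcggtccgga
HSPA8: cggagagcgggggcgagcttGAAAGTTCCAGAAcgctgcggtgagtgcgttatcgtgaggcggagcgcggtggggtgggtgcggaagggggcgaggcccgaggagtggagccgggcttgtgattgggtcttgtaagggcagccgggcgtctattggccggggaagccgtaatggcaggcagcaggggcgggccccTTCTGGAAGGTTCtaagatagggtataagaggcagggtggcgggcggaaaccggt
HSP90AA1: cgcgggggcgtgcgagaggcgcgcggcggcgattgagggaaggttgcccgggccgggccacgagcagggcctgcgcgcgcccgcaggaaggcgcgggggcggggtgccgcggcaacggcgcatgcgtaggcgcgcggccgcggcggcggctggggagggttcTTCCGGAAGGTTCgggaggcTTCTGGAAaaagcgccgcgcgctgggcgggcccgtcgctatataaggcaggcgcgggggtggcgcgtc
Positions below are counted from the start base as 0. *HSPB1* held 1 element, from -182 to -175, and *HSPA1B* held 1, from -105 to -98. *HSPA8* held 4 matches in overlapping pairs, 1 pair from -230 to -218 and 1 from -55 to -43. In *HSP90AA1* a pair ran from -88 to -76 and a further match from -68 to -61.

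The promoter table held 8 of the 10 members (neither *CRYAB* nor *HSF1*) at 13 start sites. At the start nearest to the canonical transcript, within 250 bases before and 50 after it, 6 of the 8 (75.0%) held at least 1 heat shock element, against 13.5% of all 35116 promoters in the table. The shares of all promoters, here and below, count every start site, with more than 1 for some genes. The members were counted at 1 start each. *HSP90AB1* and *HSPH1* had no match in the window searched. The *HSPH1* start lay 484 bases away from that of the canonical transcript, so its window did not cover the canonical start. A start of *HSP90AB1* lying 842 bases away from the nearest one held 4 matches. The ETS motif CCGGAA, the core letters that FLI1 and other ETS factors recognise, was searched on both strands and was present in 17.2% of all promoters and in 2 of the 8 members. In *HSPA1B* it lay from -5 to 0. In *HSP90AA1* it lay on both strands within the heat shock element pair, from -88 to -83 and from -86 to -81. The TATA box TATAAA (11.5% of all promoters) was present in *HSPA1A* and *HSPA1B*, and CCAAT on either strand (34.6% of all promoters) in *HSPA1A*, *HSPA1B*, *HSPA8* and *DNAJB1*. These letters describe the sequence only, and binding was not measured in the RNA-seq.

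**Figure D1:**
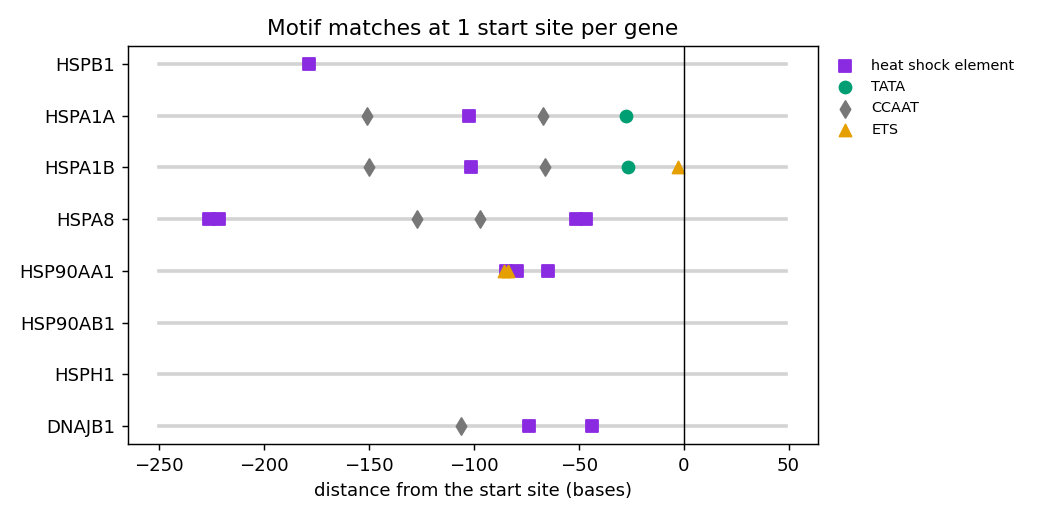
Motif matches at 1 start site of each of 8 members. The horizontal axis is the distance from the start site in bases, grey lines are the 300 bases searched, and symbols mark the midpoint of each match; 6 of the 8 lines carry a heat shock element, and those of *HSP90AB1* and *HSPH1* carry no symbol.

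The libraries summed to between 12229779 and 28891055 counts, and the knockdown library was the deeper of the pair in either line. The members took 0.571%, 0.567%, 0.531% and 0.513% of the counts in U87MG control, U87MG shFLI1, U251MG control and U251MG shFLI1. The 10 most abundant genes of each library took between 10.7% and 18.6% of its counts, the most in U87MG control. TMM factors were also computed without the 10 genes most abundant over the 4 libraries together. *HSPB1* in U87MG then stayed at -1.24 on the log2 fold change scale, and the member medians at -0.22 in U87MG and -0.14 in U251MG. *FLI1* was at 25.0% of the control level in the U87MG library labelled shFLI1 and at 30.6% in that of U251MG. Of 8 glioma cell markers, *VIM*, *NES*, *CD44*, *EGFR* and *SOX2* had at least 1337 counts in each library, *OLIG2* had at most 2 and *S100B* at most 11. *GFAP*, the intermediate filament of astrocytes, was higher with knockdown in both lines (7264 and 35305 counts in U87MG, 364 and 2808 in U251MG), and its part in the chaperone results was not tested. Of 6 markers of other cells, 5 were measured and summed to 5.41 and 3.33 CPM in U87MG and 1.07 and 1.64 CPM in U251MG, control first.

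Levels below are CPM, counts scaled by TMM to a common library size, which suits 1 gene across libraries, while levels of different genes are set side by side only in FPKM, which takes account of transcript length. Log2 fold changes compare shFLI1 with control on the log2 CPM scale with a prior count of 2. Brackets give 95% Clopper-Pearson intervals, which cover counting error only. With 1 library per arm there is no replicate check within a cell line. In bulk RNA, fewer cells that express a gene and less RNA of it in each cell cannot be told apart.

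*HSPB1*, the small heat shock protein also known as HSP27, had 586 CPM in U87MG control and 249 CPM in U87MG shFLI1. In U251MG it had 483 CPM in control and 427 CPM in shFLI1. The shFLI1 library thus stood at 42.4% of control in U87MG and at 88.2% in U251MG, and U87MG shFLI1 was the lowest of the 4 libraries. The log2 fold change was -1.24 (-1.29 to -1.19) in U87MG and -0.18 (-0.22 to -0.14) in U251MG. The difference between these values was 1.06 (0.99 to 1.12), so that the lines differed by more than counting error, although no replicate test of it was possible. Among 11380 genes with at least 100 counts in either U87MG library, 175 had a lower log2 fold change. All *HSPB1* counts came from a single RNA entry.

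*CRYAB* encodes alphaB-crystallin, a small heat shock protein that forms mixed assemblies with HSPB1. It was the least counted member in each library, with 54.5 CPM in U87MG control and 45.0 CPM in U87MG shFLI1. In U251MG, control had 32.9 CPM and shFLI1 had 55.4 CPM. The U251MG shFLI1 level was 168% of control, while that of U87MG was 82.7% of control, so the lines stood on opposite sides of 0. Log2 fold changes were -0.27 (-0.42 to -0.13) in U87MG and 0.75 (0.61 to 0.89) in U251MG, where 361 of 12129 genes with at least 100 counts had a higher value. The leading RNA of *CRYAB* carried between 84.9% and 92.8% of its counts.

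*HSPA1B* encodes the stress-inducible HSP70. It had 468 CPM in U87MG control and 271 CPM in U87MG shFLI1, and 446 CPM in U251MG control and 271 CPM in U251MG shFLI1. The shFLI1 libraries stood at 57.9% and 60.8% of control in U87MG and U251MG, and both lay below both control libraries. The values in the lines were close, with log2 fold changes of -0.79 (-0.84 to -0.74) and -0.72 (-0.76 to -0.67), in that order. Their difference was 0.07 (0.00089 to 0.14). Lower values were seen for 425 of 11380 genes in U87MG and for 482 of 12129 genes in U251MG. *HSPA1B* and *HSPA1A* are near-identical copies, and of 2368 windows of 150 bases in the canonical *HSPA1B* transcript 1566 (66.1%) occur unchanged in that of *HSPA1A*. *HSPA1A* had no entry of its own among the gene identifiers analysed. The count given to *HSPA1B* may therefore include reads of *HSPA1A*, and the *HSPA1B* results here may describe both genes. It depends on how the counting placed reads that fit both genes, which is not stated. Between 97.1% and 98.1% of its counts fell on 1 of its 5 RNA entries.

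*HSPA8* encodes HSC70, the constitutive HSP70 that most cells hold in quantity. U87MG control had 1873 CPM and U87MG shFLI1 had 1749 CPM, and the U251MG libraries had 1661 and 1422 CPM, control first. Log2 fold changes were -0.10 (-0.12 to -0.07) and -0.22 (-0.25 to -0.20). The direction in U87MG depended on the scaling, with 0.06 under total counts and under FPKM. No 150-base window of *HSPA1B* occurs in *HSPA8* (0 of 2368), so reads can tell this pair apart.

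*HSPH1*, an HSP110 that serves HSP70 as a nucleotide exchange factor, had 159 CPM in U87MG control and 194 CPM in U87MG shFLI1, with 151 and 154 CPM in U251MG. Its log2 fold change was 0.28 (0.21 to 0.36) in U87MG and 0.03 (-0.04 to 0.09) in U251MG, where the interval held 0 and the leading RNA alone gave 0.31. *DNAJB1*, the J-domain protein HSP40 that starts the HSP70 cycle, had 330 and 283 CPM in U87MG and 303 and 274 CPM in U251MG. Both shFLI1 values of *DNAJB1* lay below both control values, with log2 fold changes of -0.22 (-0.28 to -0.16) and -0.14 (-0.19 to -0.09). The leading RNA of *HSPH1* carried only 36.7% to 45.4% of its counts, that of *DNAJB1* at least 95.6%.

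*HSP90AA1* encodes the inducible HSP90. It had 798 CPM in U87MG control and 1033 CPM in U87MG shFLI1, and 861 and 1005 CPM in U251MG. It was the only member with both shFLI1 libraries above both control libraries. Log2 fold changes were 0.37 (0.34 to 0.41) and 0.22 (0.20 to 0.25). *HSP90AB1*, the constitutive HSP90, had 1621 and 1418 CPM in U87MG and 1353 and 1255 CPM in U251MG. Its log2 fold changes were negative, at -0.19 (-0.22 to -0.17) and -0.11 (-0.13 to -0.09).

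*HSF1*, whose product drives the heat shock response, had 212 CPM in U87MG control and 175 CPM in U87MG shFLI1, and 104 and 90.7 CPM in U251MG. The knockdown libraries differed from control by -0.28 (-0.35 to -0.20) and -0.20 (-0.28 to -0.11) on the log2 scale. These RNA levels say nothing of HSF1 protein, which is controlled largely by its binding to chaperones and by phosphorylation. Of the 11 RNA entries of *HSF1*, the leading one held at most 38.9% of the summed counts, and a second entry held the same counts. If both entries stand for the same reads, the summed *HSF1* levels repeat them, which was not tested. Taken alone, the leading entry gave a log2 fold change of -0.37 in U251MG.

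**Figure D2:**
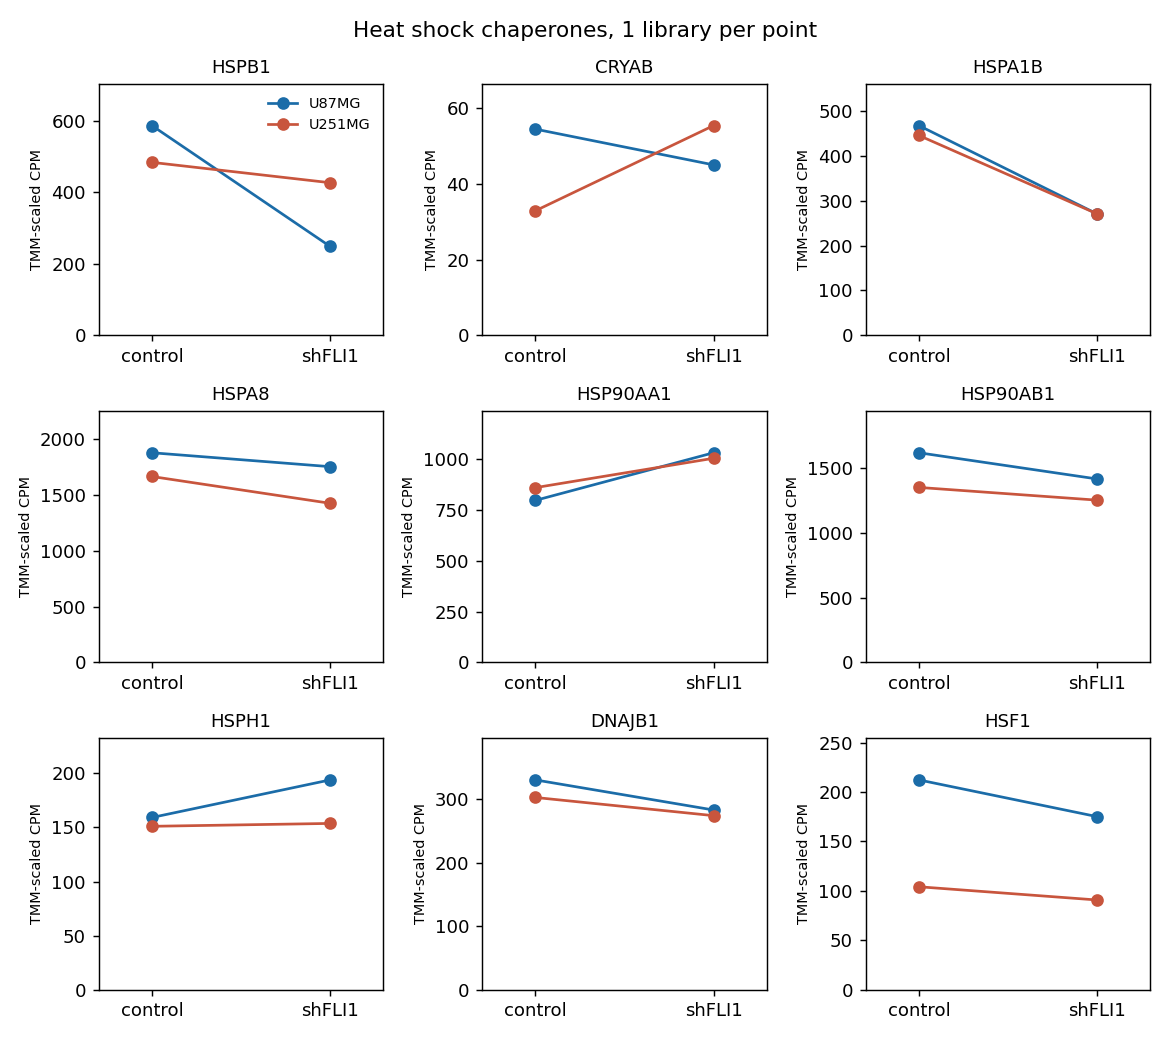
TMM-scaled CPM of the 9 measured members, 1 panel per gene and 1 library per point, with lines joining control and shFLI1 of the same cell line (blue U87MG, red U251MG) and axes that start at 0. *HSPA1B* is lower with knockdown in both lines (468 to 271 and 446 to 271 CPM), and *CRYAB* slopes down in U87MG and up in U251MG.

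As a group, the members centred slightly below 0. In U87MG 2 were above 0 and 7 below, with a median log2 fold change of -0.22 against 0.06 over all 17355 genes with at least 10 counts in 1 library. In U251MG 3 were above and 6 below, with a median of -0.14 against 0.04 over 18222 genes. The summed counts of the 9 gave -0.17 (-0.19 to -0.16) in U87MG and -0.12 (-0.13 to -0.11) in U251MG. In U87MG, *HSPB1* alone was lower past 2-fold and 0 members were higher, where 4.45% and 10.0% of the genes tested were lower and higher past 2-fold. With at least 100 counts, as every member had, these shares were 2.33% and 2.55%. In U251MG 0 members passed 2-fold in either direction, against shares of 4.19% lower and 5.57% higher, or 2.18% and 1.11% with at least 100 counts. A count of 1 member of 9 is too small to be read against these shares.

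**Figure D3:**
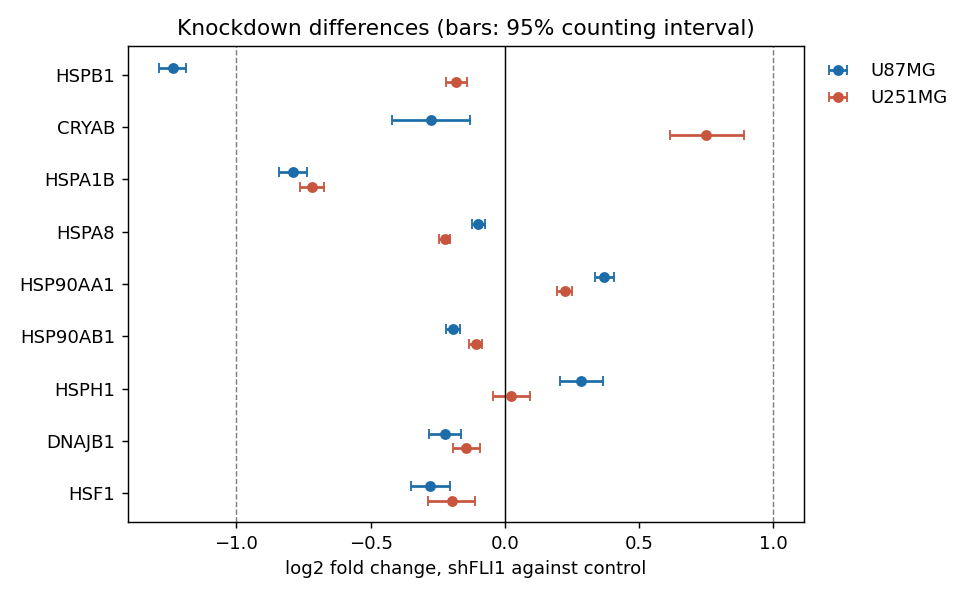
Log2 fold change of shFLI1 against control for the 9 members in U87MG (blue) and U251MG (red), where bars are 95% counting intervals from 1 library per arm, dashed lines mark 2-fold and the solid line marks 0. *HSPB1* in U87MG, at -1.24, is the only point past 2-fold, and the *HSPA1B* points lie close together at -0.79 and -0.72.

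The only replicated contrast takes both cell lines together, with the lines as replicates of the knockdown. In it, *HSPA1B* fell by 0.77 on the log2 scale (edgeR quasi-likelihood test with cell line as a block, Benjamini-Hochberg adjusted P = 0.0395 over 16649 genes), and was lower in 2 of 2 lines. It was 1 of 9 members past the test, where 2.14% of genes fell and 0.931% rose. The call was lost with total-count scaling, without the block and with limma on FPKM, and the adjusted P ranged from 0.000313 to 0.861 over 7 alternatives. For *HSPB1* the shared log2 fold change was -0.72 with an adjusted P of 0.186 in the same edgeR test. The other 7 members had adjusted P values from edgeR between 0.412 (*HSF1*, -0.25) and 0.740 (*HSP90AB1*, -0.17). Both shFLI1 libraries lay below both control libraries for *HSPB1*, *HSPA1B* and *DNAJB1*, 3 of 9 members, against 14.2% of the genes tested, and above them for 1 of 9, against 17.5%. In the remaining 5 the arms overlapped.

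Shares within a library do not depend on how libraries are scaled to each other. *HSPA1B* made up 20.0% (19.5 to 20.5%) of the summed counts of *HSPA1B* and *HSPA8* in U87MG control and 13.4% (13.1 to 13.7%) in U87MG shFLI1. In U251MG its share was 21.2% (20.7 to 21.6%) in control and 16.0% (15.7 to 16.3%) in shFLI1. As counted, *HSPA1B* was thus a smaller part of the pair in both knockdown libraries. Its counts may include reads of *HSPA1A*, its near-identical copy, which had no entry of its own. *HSP90AA1*, the inducible HSP90, went the other way, from 33.0% to 42.1% of the *HSP90AA1* and *HSP90AB1* counts in U87MG and from 38.9% to 44.5% in U251MG. *CRYAB* had 8.50% and 15.3% of the *CRYAB* and *HSPB1* counts in U87MG and 6.38% and 11.5% in U251MG. In the last pair the shift came with a lower *HSPB1* CPM in U87MG and with a higher *CRYAB* CPM in U251MG. In all 3 pairs the intervals of the arms did not meet in either line, and shares computed from the deposited FPKM moved in the same directions (18.1% to 12.0% and 19.2% to 14.4% for *HSPA1B*).

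**Figure D4:**
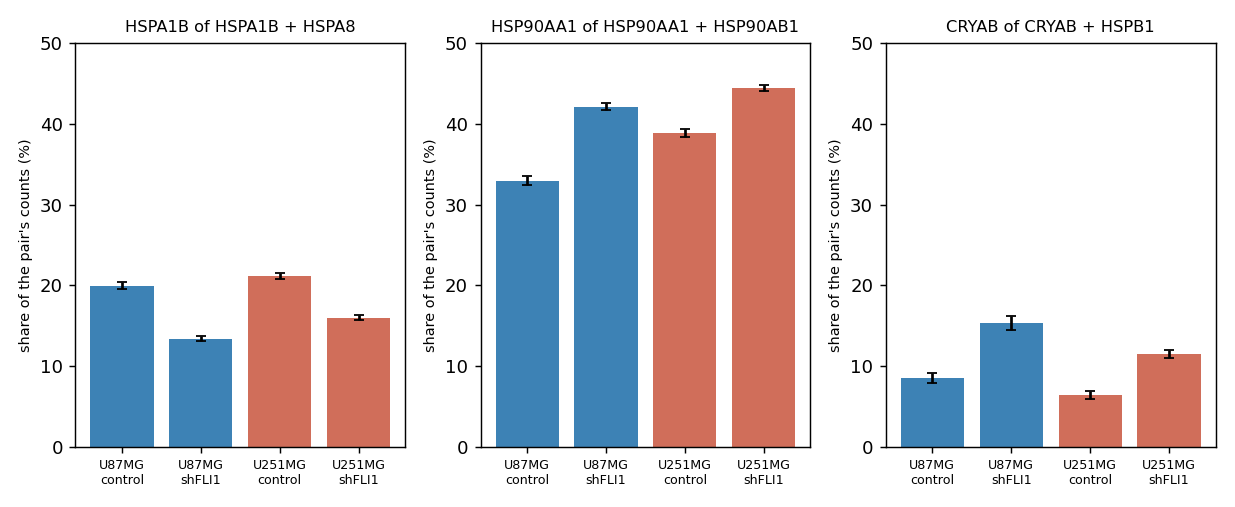
Share of a pair's counts held by *HSPA1B*, *HSP90AA1* and *CRYAB* in each library, in percent, with 95% Clopper-Pearson intervals as bars (blue U87MG, red U251MG). The *HSPA1B* share is lower with knockdown in both lines, and those of *HSP90AA1* and *CRYAB* are higher.

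Between members, summed FPKM put *HSPB1* highest in U87MG control (1057), U251MG control (927) and U251MG shFLI1 (861). In U87MG shFLI1 it had 491 FPKM and came after *HSPA8* (912) and *HSP90AB1* (643). *HSPH1* was lowest in each library, from 50.5 to 69.3 FPKM. Without knockdown the lines differed most in *HSF1*, with a log2 difference of U251MG from U87MG of -1.03 (-1.12 to -0.94), followed by *CRYAB* at -0.73 (-0.89 to -0.56). Control levels of *HSPA1B* were close, at -0.07 (-0.12 to -0.02), and that of *HSPH1* had an interval that held 0, at -0.08 (-0.16 to 0.01).

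Wider chaperone genes were taken from 8 lists of other small heat shock proteins, HSP70 and HSP110 proteins, J-domain proteins, HSP70 cofactors, HSP90 co-chaperones, chaperonin subunits, organelle chaperones and heat shock factors. Of 68 genes, 59 had enough counts in U87MG, of which 0 were higher and 3 lower past 2-fold, against 10.0% and 4.45% of all genes tested, and 34 lay above 0 and 25 below. Their median log2 fold change was 0.04. In U251MG, of 61 genes 1 was higher and 1 lower past 2-fold, against 5.57% and 4.19% of all genes tested, with 34 above 0, 27 below and a median of 0.01. Across both lines 1 of 59 genes passed the shared edgeR test, where 2.14% of all genes fell. This was *DNAJB9*, a J-domain protein of the endoplasmic reticulum, which fell by 1.01 on the log2 scale (adjusted P = 0.0260 in edgeR). It had 16.8 and 8.41 CPM in U87MG and 18.4 and 9.15 CPM in U251MG (-0.99 on the log2 scale in U87MG, just past 2-fold lower in U251MG), and the adjusted P was below 0.05 in 3 of 7 alternatives.

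Among other HSP70 genes, *HSPA6*, a strictly stress-inducible HSP70, had 30 and 18 counts in U87MG (-1.58, -2.62 to -0.80) and 27 and 27 in the 2 U251MG libraries (-0.69, -1.57 to 0.08). *HSPA2*, better known from the testis, had 30 and 22 counts in U87MG (-1.32). In the list of other small heat shock proteins, *HSPB11* had the larger change of the 2 genes with enough counts in U87MG, at -0.35. In U251MG *HSPB7*, with 4 and 19 counts, had the largest of 3, at 1.18 (-0.09 to 3.51). The heat shock factor gene *HSF4* had 12 and 9 counts in U87MG (-1.19) and *HSF2* was at 0.26 in U87MG (-0.06 with its leading RNA alone) and -0.35 in U251MG. Apart from *DNAJB9*, the wider genes past 2-fold thus all had at most 30 counts in either library.

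In the other lists no gene passed 2-fold. The HSP90 co-chaperone *CHORDC1* was at 0.63 in U87MG, and the co-chaperone pseudogene *AHSA2P* was at 0.73 in U251MG. Among HSP70 cofactors, the nucleotide exchange factor gene *BAG1* was at 0.35 in U87MG and -0.04 in U251MG, and *HSPBP1* was at 0.24 and 0.25. The chaperonin subunits stayed within -0.10 and 0.35 in both lines, with *TCP1* at 0.27 in U87MG and *CCT7* at 0.35 in U251MG. Among organelle chaperones, *HSPA5*, the HSP70 of the endoplasmic reticulum, was at -0.46 (-0.50 to -0.43) in U251MG and at -0.02 in U87MG, and the mitochondrial *HSPE1* at -0.25 in U87MG.

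**Figure D5:**
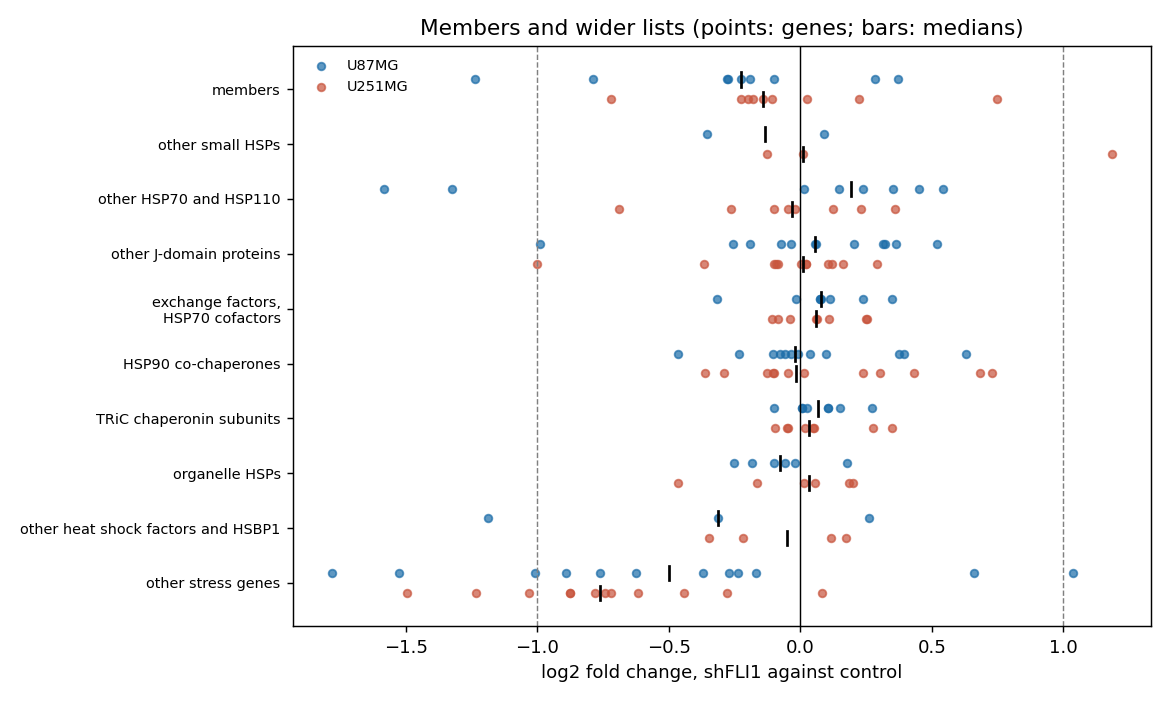
Log2 fold change of shFLI1 against control for each gene with at least 10 counts in 1 library of its cell line, by list, where points are genes (blue U87MG, red U251MG), black bars are list medians and dashed lines mark 2-fold. The chaperone lists centre near 0, with medians over the wider genes of 0.04 and 0.01, and the other stress genes lie lower, with medians of -0.50 and -0.76. The lists were chosen with earlier results of these data known, so these medians carry no test.

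The genes whose levels ran most like *HSPB1* over the 4 libraries were searched among 9772 genes with at least 100 counts in each library, by the Euclidean distance of centred log2 CPM. The 5 nearest were *LGALS1* (0.113), *HPS3* (0.113), *DNER* (0.138), *SEMA4B* (0.171) and *LRP11* (0.203). *LGALS1*, which encodes the lectin galectin-1, was at -1.08 in U87MG and -0.18 in U251MG on the log2 fold change scale. *HPS3* had -1.15 and -0.09, and *DNER* -1.36 and -0.23. With 4 libraries such a likeness describes these libraries and carries no test.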

How the data were processed

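RNA-seq of U87MG and U251MG cells, 1 control and 1 shFLI1 library each, was analysed. Per the paper's methods, the authors made poly-T purified mRNA libraries, used HISAT2 for alignment to GRCh38 and StringTie for FPKM. The deposited table holds an estimated count, which is not normalized, and an FPKM for each of 185042 linear RNAs in each library. The tool behind the counts is not given in the sources used here, and the paper and labels name different library kits. TPM and mean columns (10 value columns) and circular RNAs were not used.

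Counts were summed over Entrez gene identifiers, rounded and scaled by TMM over the 4 libraries (R 4.3.3, edgeR 4.0.16), with a prior count of 2. Within a cell line a gene was called past 2-fold with at least 10 counts in 1 library, with no P value, since each arm has 1 library. The shared contrast used edgeR's quasi-likelihood test on genes kept by filterByExpr with cell line as a block and 1 residual degree of freedom, with Benjamini-Hochberg adjustment at 0.05. Its P values rest on the spread of the responses between the cell lines, not between cultures. With 1 residual degree of freedom, edgeR estimates this spread for a gene largely with information from the other genes. Alternatives used DESeq2 1.42.0, limma 3.58.1 and the deposited FPKM. PCR reads are not independent molecules, so Clopper-Pearson intervals cover counting error only. Symbols came from the NCBI RefSeq table of GRCh38 (23775 identifiers matched). Promoters were matched by symbol.

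The members and lists were chosen with earlier results of these data known. Named genes were the members, *FLI1*, wider genes past 2-fold in both lines or with the largest change of their list in a line, and the 5 genes nearest *HSPB1*. *HSPA2*, *GFAP*, *EGR1*, *FOS* and genes past the shared test were added after their values were seen. Scripts were tested on simulated data.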

Additional observations from a re-analysis of the deposited data

Results flagged for a closer look

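*CRYAB* differed in direction between the cell lines. Its log2 fold change of shFLI1 against control was -0.27 (-0.42 to -0.13) in U87MG and 0.75 (0.61 to 0.89) in U251MG, a difference of 1.02 with a 95% counting interval of 0.82 to 1.23. It had 624 and 1002 counts in U87MG control and shFLI1, and 587 and 1660 in U251MG. The difference was not tested, since each line has 1 library per arm and the interval covers counting error only.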

How the results depend on the processing

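Under 7 other scalings, prior counts and summaries, the 126 log2 fold changes of single members in a cell line kept their sign in all but 3 values, all of *HSPA8* in U87MG. Of the values, 52 moved beyond the counting interval, among them *HSPH1* and *HSF1* in U251MG with the leading RNA alone (0.03 to 0.31 and -0.20 to -0.37). Total-count scaling raised the median of all genes from 0.06 to 0.22 in U87MG and from 0.04 to 0.11 in U251MG, and the *HSPA8* value of 0.06 under it is below that median. The member median in U87MG (-0.22) became -0.0625 with total counts, -0.0713 with FPKM at a pseudocount of 1 and -0.0717 at 0.1, and that in U251MG (-0.14) became -0.0690, -0.0356 and -0.0360. The summed members in U87MG (-0.17) became -0.20 with DESeq2 size factors, -0.0113 with total counts and -0.23 with FPKM at either pseudocount. In U251MG (-0.12) they became -0.14, -0.0489, -0.0556 and -0.0556. With a 1.5-fold threshold 2 members passed in U87MG (*HSPB1* and *HSPA1B*, both lower) and 2 in U251MG (*HSPA1B* lower, *CRYAB* higher), against 1 and 0 at 2-fold.

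In the shared test 1 member passed when edgeR was replaced by DESeq2, when DESeq2's size factors replaced TMM, and when every library had to hold 100 counts. With total counts 0 passed (365 genes called by edgeR, 3 members at an unadjusted P below 0.05, lowest adjusted P 0.0721). Without the cell line block 0 of 16649 genes and 0 members passed in edgeR (1 member at an unadjusted P below 0.05, lowest adjusted P 0.861), and with limma on FPKM 0 genes and 0 members (1 member unadjusted, lowest adjusted P 0.299). Without a filter 2 passed, *HSPA1B* and *HSPB1*, among 1304 of 43576 genes against 512 in the main edgeR test. Of the wider genes past the shared test, *DNAJB9* was lost with DESeq2, total counts, no block and limma, *DUSP1* and *MT2A* with the last 3, and *GADD45B* and *DDIT3* with no block and limma. The causes were not tested. No replicate could be left out with 1 library per arm, *HSPA1A* and *HSPA1B* were not summed since *HSPA1A* was not analysed here, and the labels give no replicate numbers to pair by, so that the arms were paired by cell line only. Depth limits *HSPA6*, *HSF4* and *HSPB7*, which had at most 30 counts in a library.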

Other observations

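Other stress genes, a list of 12 early response, oxidative and metal stress genes, were mostly lower with knockdown. The list was chosen with earlier results of these data known, so setting it against all genes describes it and carries no test. In U87MG 10 of 12 lay below 0 with a median log2 fold change of -0.50, and in U251MG 11 of 12 with a median of -0.76, where the medians of all genes tested were 0.06 and 0.04. In U87MG 3 were lower past 2-fold and 1 higher, where 4.45% of all genes tested were lower and 10.0% higher. In U251MG 3 were lower and 0 higher, where 4.19% of all genes tested were lower and 5.57% higher. The early response genes *EGR1* (1.04) and *FOS* (0.66) were the 2 above 0 in U87MG, and both lay below 0 in U251MG (-0.74 and -0.87). *GADD45B*, a growth arrest gene induced by stress, was the one gene past 2-fold in both lines, with 53.6 and 26.6 CPM in U87MG (-1.01) and 42.7 and 18.1 CPM in U251MG (-1.23). In edgeR's shared test, in which 2.14% of all genes fell, 4 of 12 fell, *GADD45B* (-1.14, adjusted P = 0.00599), *DDIT3* (-1.21, adjusted P = 0.0140), *MT2A* (-0.83, adjusted P = 0.0200) and *DUSP1* (-0.84, adjusted P = 0.0256). *HMOX1*, which encodes heme oxygenase, had 123 and 35.8 CPM in U87MG (-1.78) and 40.4 and 33.3 CPM in U251MG (-0.28), and did not pass that test (adjusted P = 0.115 in edgeR).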
